A study of Drosophila melanogaster with 4 samples.

Results

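The Eip74EF window was the stretch of chromosome arm 3L from 17550000 to 17620000 in FlyBase release 5 coordinates, and it held 39 binding peaks of the GFP-tagged nuclear receptor Usp. Peaks were chosen by the midpoint of the start and end that the authors gave them, and these 39 were among 814 peaks on 3L and 3053 in the whole list. The window was picked for its gene with earlier results of the same list known, so the values below describe it and no test was run on them.

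The data came from a ChIP-seq study of *Drosophila melanogaster* larvae in the wandering part of the third instar. Chromatin was precipitated with a polyclonal rabbit antibody to GFP in 2 ChIP libraries, and 2 further libraries held input DNA. All 4 libraries carried the same labels, namely strain USP-GFP, genotype PBac{y[+]-attP-3B}VK00033 and a transgene with the genomic coding region of usp, with sex unknown. The protocol text shared by the 4 libraries names *y; bw cn sp* flies instead. The protocol text used here names no dissection of the larvae, and the tissues that gave the chromatin are not stated. The single deposited list has one score per peak and no value per library, so no peak has a replicate spread and the depth of each library is unknown.

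Usp (Ultraspiracle) is the Drosophila member of the retinoid X receptor family. It pairs with the ecdysone receptor EcR, and the pair binds DNA and switches genes in response to the steroid 20-hydroxyecdysone, whose pulses drive moulting and metamorphosis. Eip74EF is a classic early gene of that response, first seen as a puff on the salivary gland polytene chromosomes. From separate promoters it makes E74A and E74B, transcription factors with a shared ETS DNA-binding domain that go on to regulate later genes. In the Release 6 gene order of RefSeq, its protein-coding neighbours on 3L are CycT, a cyclin of the transcription elongation kinase P-TEFb, and Vps60, a gene of the endosomal sorting machinery. Promoters, exons and introns were not placed on the release 5 coordinates here, so the peaks are given by position, and none is assigned to Eip74EF or to a neighbour.

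The 39 peaks formed a pair of crowded groups with a nearly empty stretch between them. The first group ran from 17557267 to 17587707, a length of 30.4 kb, and held 25 peaks that covered 59.5% of its bases. A gap of 9230 bp without a peak followed. The second group ran from 17596938 to 17614485, 17.5 kb long, with 14 peaks covering 52.7% of it. Peaks were put in one group where less than 5 kb lay between their edges. Joining at 1 kb instead split the window into 5 groups, and joining at 20 kb made 1.

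**Figure D1:**
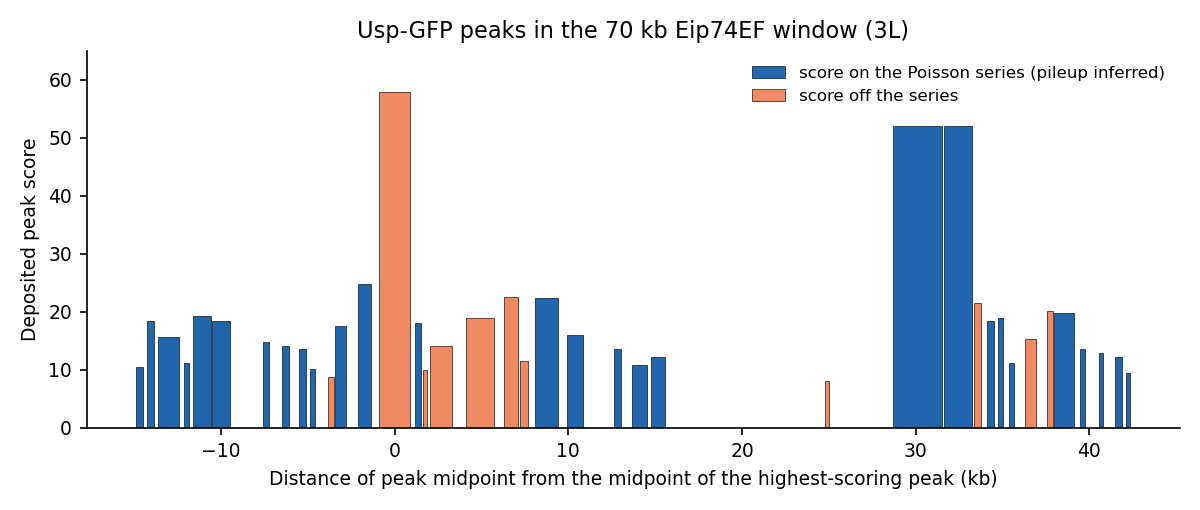
Every peak of the Eip74EF window, drawn as a bar whose width is the peak's width and whose height is its deposited score, against distance in kb from the midpoint of the highest-scoring peak. The peak of score 57.97 stands near the middle of the 25-peak group, and the adjoining pair of score 52.00 comes right after the isolated first peak of the 14-peak group. Blue and orange mark scores on and off the Poisson series described in the text.

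Outside these groups the window was empty, and the nearest peaks beyond it lay 30.0 and 30.4 kb from its members. The first member, 3L:17557267-17557663, lay 7.46 kb inside the left limit by its midpoint and had a score of 10.45. The last, 3L:17614234-17614485, lay 5.64 kb inside the right limit and scored 9.46. Before the window, the next peak of the arm was 3L:17526995-17527219, 30.0 kb away from the first member, with a score of 10.45. After it came 3L:17644890-17645161, 30.4 kb from the last member, also with 10.45. Taking any overlap with the window in place of the midpoint gave 39 peaks as well.

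No source used here says what the deposited score measures. Scores shared by at least 10 peaks of the list, 52 values in all, lay on average 0.00299 score units from the −log10 of a Poisson upper tail, that is, the chance of at least k fragments, a whole number, over a background of 43.9 fragments. The background of 43.9 was the one that made this distance smallest, so the distance comes from the same 52 values as the fit. A peak within 0.01 of a value of this Poisson series was given the pileup k, the inferred number of overlapping fragments. Its fold was k over 43.9. At the members' median pileup of 107 the values of the series stood 0.394 apart. Of the 39 members, 28 (71.8%, exact binomial 95% interval 55.1 to 85.0%) lay on the series, against 74.1% of the 775 other peaks of 3L. The other 11 members get no fold. Intervals of folds are exact Poisson intervals at 95%, and they cover counting error only.

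The highest score of the window, 57.97, belonged to 3L:17571244-17573040, a peak 1797 bp wide. It ranked 11 by score among the 814 peaks of 3L, and it lay off the series by 0.273. Its left neighbour, 3L:17570036-17570750, had the next score after the 3 highest, 24.71, with a pileup of 129 fragments and a fold of 2.94 (2.45 to 3.49). Farther right in the same group, 3L:17578440-17579256 scored 22.61 and was off the series. The 25-peak group thus had one peak far above the rest, since its other 24 peaks scored between 8.78 and 24.71.

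The highest scores of the second group belonged to a pair of adjacent broad peaks with the same score, the next after its isolated first peak. These were 3L:17600839-17603640, 2802 bp wide, and 3L:17603770-17605361, 1592 bp wide, with 129 bp between them. Each scored 52.00, which gave a pileup of 179 fragments and a fold of 4.08 (3.50 to 4.72) for either peak. The score was shared by 5 peaks of the whole list. The midpoints of the pair lay at 52.24 and 54.57 kb from the left limit of the window, against 22.14 kb for the peak of score 57.97. The remaining 12 peaks of the group were much lower, from 8.08 to 21.46, and the isolated first one, 3L:17596938-17597169, had the lowest score of the window and its narrowest width, 232 bp. From that pair to the right end, the 11 peaks scored, in order along the arm, 21.46, 18.45, 18.87, 11.13, 15.29, 20.11, 19.73, 13.66, 12.91, 12.19 and 9.46. The order did not fall steadily: the peaks of 20.11 and 19.73 stood above the 4 before them. The fold was 2.69 (2.23 to 3.22) at 19.73 and 2.19 (1.77 to 2.67) at 11.13. These intervals overlapped, which is no test of a difference. The peak of 20.11 was off the series and has no fold.

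Most members with a fold had values close to one another. Of the 28 members with a fold, the lowest had a pileup of 91 fragments, or 2.07 times the background (1.67 to 2.55), and the median fold was 2.44, with quartiles of 2.26 and 2.63. The pair at 4.08 and the peak at 2.94, whose interval began at 2.45, were the only ones of these 28 with intervals wholly above that median. The highest-scoring peak has no fold and is not among them. The other 3L peaks on the series had a median fold of 2.28 (quartiles 2.14 and 2.51) and a maximum of 5.51. Several members had exactly the same score, as whole-number pileups give: 3 members scored 18.45, a pileup of 115, and 3 scored 13.66, a pileup of 103.

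The median score was higher in the window than elsewhere on the arm, though the arm held stronger peaks. Members had a median score of 15.29 (quartiles 11.84 and 19.09), against 12.19 (10.11 and 15.98) for the 775 other 3L peaks, whose highest was 103.3. A score of 20 or more was found for 8 of the 39 members, or 20.5%, against 14.1% of the others. A score of at least 50 was found for 3 members, against 15 of the others, or 1.94%. Scores in the top 50% of the arm, from 12.19 up, belonged to 29 members, or 74.4%, against 51.0% of the others. The top 25%, from 16.38 up, took in 17 members, or 43.6%, against 24.5%. The exact interval of that member share was 27.8 to 60.4%, and for the top 50% it was 57.9 to 87.0%. The share of the others lay outside each. For scores of 20 or more the interval was 9.3 to 36.5%, and for scores of at least 50 it was 1.62 to 20.9%. These included the shares of the others, 14.1% and 1.94%. All these intervals take peaks as independent, and the fragments of close neighbours may overlap.

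Broad peaks were common in the window. The members had a median width of 397 bp, with quartiles of 326.5 and 956.5 bp, against 329 bp (247 and 516.5) for the other 3L peaks. Of the 39 members, 10 (25.6%) were wider than 1 kb, against 6.84% of the others, or 4.97% when the most crowded region of the arm, with 71 peaks, was left out of these. The 10 broad members made up 14.7 of the 27.4 kb covered in the window, or 53.7%. After the peaks of 2802 and 1797 bp, the widest were 3L:17576234-17577871 at 1638 bp, with a score of 18.86, the peak of 1592 bp already given, and 3L:17580249-17581523 at 1275 bp, which scored 22.40 with a fold of 2.83 (2.35 to 3.37). The widest peak of 3L elsewhere reached 9457 bp, and 2802 bp ranked 11 among the widths of the arm.

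**Figure D2:**
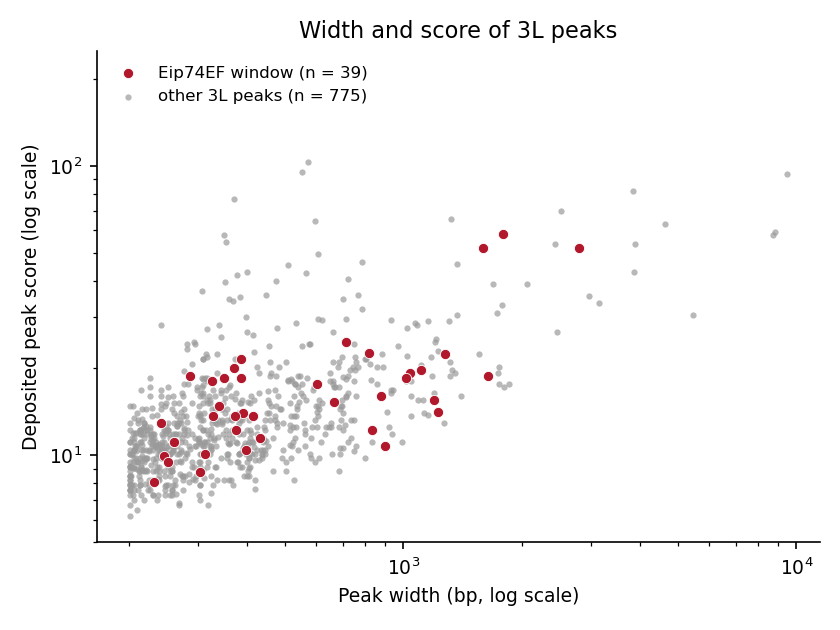
Width in bp against deposited score for each 3L peak, both on log axes, with the 39 peaks of the Eip74EF window in red and the 775 others in grey. The red points lie within the cloud of the others, with many toward the wide side. The 3 with scores of 52.00 and 57.97 stand apart from the other red points at the upper right. Some grey points there are both wider and higher in score.

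Width and score rise together on this arm, so widths were also set side by side within levels of score. At scores from 12 to under 20, the 21 members had a median width of 413 bp against 378 bp for 286 others, and 6 of them (28.6%) were wider than 1 kb against 6.64%. At scores of 20 or more, the 8 members had a median of 1046 bp against 702 bp for 109 others. Of these 8, 4 (50.0%) were wider than 1 kb, against 31.2% of the 109. This level has no upper limit, so its scores were not alike. It held 3 members with scores of at least 50, against 15 of the 109 others. Those 3, of 1797, 2802 and 1592 bp, were among the 4 broad members of the level, and the fourth was 1275 bp wide. Below a score of 12, the medians were 282.5 bp for 10 members and 263 bp for 380 others, and no peak of either set passed 1 kb. Across the 39 members the Spearman correlation of score with width was 0.63, and the Pearson correlation of the log10-transformed values was 0.70, given as a description, since width and score come from the same peak call. The values were 0.58 and 0.63 across the 775 other 3L peaks.

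Little space lay between neighbouring peaks. Of the 38 gaps between adjacent members, 34 were under 1 kb and 9 under 200 bp, the smallest being 59 bp. The median of the 37 gaps under 5 kb was 383 bp, against 576.5 bp for the 512 such gaps among the other 3L peaks. Of those 512 gaps, 348 were under 1 kb and 115 under 200 bp, the smallest being 44 bp. Gaps under 200 bp were thus about as frequent elsewhere on the arm. Several neighbours would count as one enriched stretch under a looser call. With peaks less than 500 bp apart joined, the window held 17 stretches. The longest, from 17600839 to 17607799, took in 6 peaks over 6961 bp, 81.6% of it covered, and included both peaks of score 52.00. The next, 17570036 to 17575421, took in 5 peaks over 5386 bp with the peak of score 57.97. One of like size, 17557267 to 17562630, held 6 peaks over 5364 bp at the left end, none scoring above 19.30.

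Coverage followed the same layout. Peaks covered 39.1% of the 70 kb window, against 1.59% of 3L outside it, with the arm taken from the start of its first peak to the end of its last, 24.4 Mb. The window made up 0.287% of that length and held 4.79% of the arm's peaks and 6.61% of the bases they covered. In steps of 5 kb, coverage was highest from 17600000 to 17604999, at 80.6%, and from 17570000 to 17574999, at 77.7%, which are the bins with the peaks of score 52.00 and 57.97. It was 66.2% in the bin from 17575000 and 53.2% in that from 17560000, where the highest scores were 22.61 and 19.30. Of the 14 bins, 5 were covered by 50% or more and 3 were empty, whereas 0.595% of the 4877 bins elsewhere on 3L reached 50% and 91.0% were empty.

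**Figure D3:**
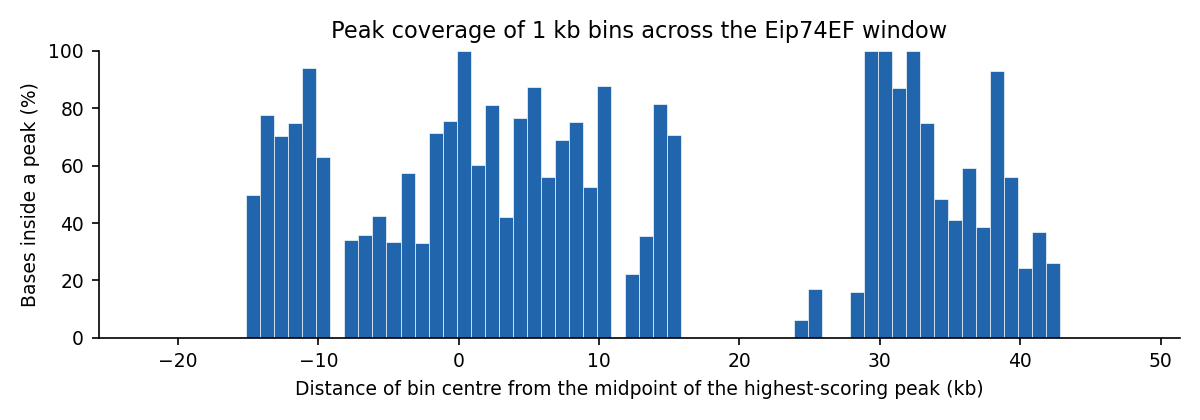
Share of bases inside a peak, in percent, for each 1 kb bin of the Eip74EF window, against distance in kb from the midpoint of the highest-scoring peak. Of 70 bins, 4 are covered in full, 1 within the highest-scoring peak and 3 in the pair of score 52.00, and 24 are empty, among them 8 in a row between the groups.

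Of the 11 scores off the series, 6 lay within 8.57 kb of the window. In all, 7 lay in the 25-peak group and 4 in the 14-peak group. Within the larger group, 5 adjacent peaks from 17573764 to 17579818, a stretch of 6.05 kb just right of the highest-scoring peak, were all off it, with scores of 9.97, 14.12, 18.86, 22.61 and 11.50. Of these, 18.86 missed by 0.0123 and lay on it at a tolerance of 0.015. From the highest-scoring peak to the end of that stretch, 6 of 7 peaks were off the series, the exception being 3L:17573313-17573638 with a score of 18.03. MACS, the peak caller, can score a peak against a background raised by its surroundings, and whether it did so here was not tested.

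The window ranked high on 3L by number of peaks. Among 2420 windows of the same length that began every 10 kb and did not touch it, 1 held as many peaks or more. That window began at 17910000 and held 43. The median such window held 0 peaks, the 95th percentile was 11, and 55.7% held none. By bases covered, 10 of these windows equalled or passed it, up to 88.3%, but such windows overlap one another and are not 10 separate places. On a grid of windows that did not overlap, 2 of 346 did so, at 48.1% and 73.7%. Those 2 were adjacent and both overlapped the region of 71 peaks, so they are not separate places either. With windows every 1 kb, 105 did so.

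Set among the crowded regions of the arm, both groups were well covered. Joining at 5 kb gave 16 regions of 10 or more peaks on 3L, including the 2 of the Eip74EF window. The 25-peak group had the third most peaks, after regions of 71 and 33, and the 14-peak group tied for seventh. By share of bases covered they stood at ranks 3 and 4, at 59.5% and 52.7%, against a median of 36.2% and a range of 22.3 to 68.3% in the 14 other regions. By highest score they stood at ranks 2 and 3, against a median of 21.9 and a maximum of 81.8 in the others. By share of peaks wider than 1 kb they stood at ranks 1 and 3, at 28.0% and 21.4%, against a median of 8.01% and a maximum of 25.4%. By number of peaks per 10 kb they were nearer the middle, with 8.21 and 7.98 against a median of 7.54 and a maximum of 12.3.

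**Figure D4:**
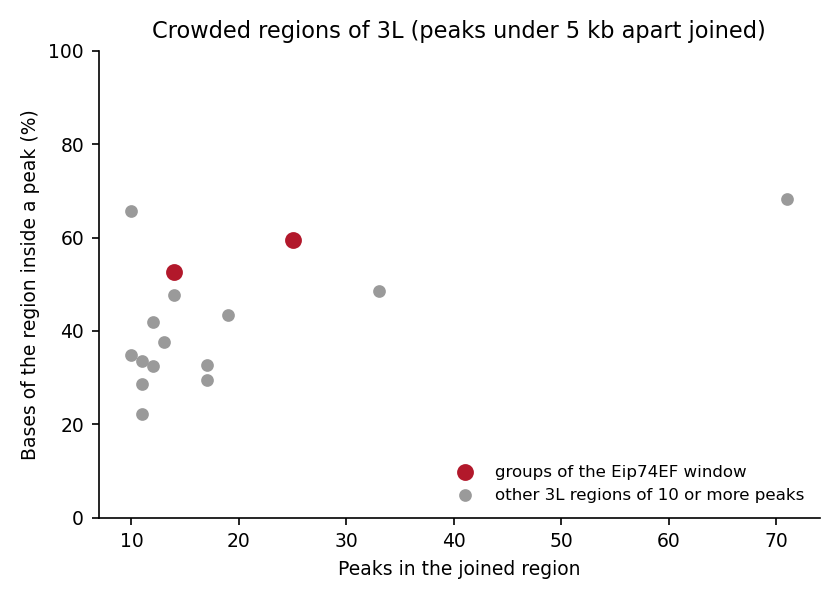
Number of peaks against the share of bases inside a peak, in percent, for the 16 regions of 3L with 10 or more peaks after joining at 5 kb. The groups of the Eip74EF window (red) lie at 25 peaks with 59.5% and 14 peaks with 52.7%, above all but 2 of the 14 other regions (grey).

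The groups were close in median fold and farther apart in median score and median width, with no test of these differences. The 25-peak group had a median width of 601 bp and the 14-peak group one of 360 bp, while their median scores were 14.80 and 16.87 and their median folds 2.44 and 2.48. Peaks wider than 1 kb numbered 7 of 25 and 3 of 14. Without its isolated first peak, the smaller group ran over 13.6 kb, was covered to 66.1% and had a median score of 18.45. Its covered share was then above the 59.5% of the larger group, so the order of the groups by coverage turns on that one peak.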

How the data were processed

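Per the file headers, the deposited file holds MACS peaks on FlyBase release 5, 1 score per peak. The submitters' processing notes also name BDGP5, CASAVA 1.7.0.2 and 1.7.0.3, BWA and MACS2. Calling thresholds, duplicate filters and pooling of replicates are not stated in any label or header, and a looser or stricter threshold would change widths, gaps and coverage. Whether the replicates are separate cultures is not given either.

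Members, the window and all measures were chosen with earlier results of these data known. The background of the score series was fitted on all 3053 peaks by the smallest mean distance. The fit was checked on simulated scores, and joining and coverage on a small made-up set of peaks. The simulated scores were themselves Poisson upper tails, so that check cannot show what the deposited score measures. Peaks named with full values are the 5 highest scores, the 5 widest, the first and last member and the nearest peaks outside. The stretch off the series and the stretches joined at 500 bp were chosen after their values were seen. Sequence and gene features of release 5 were not used here. The software was Python 3.11.15 with scipy 1.17.1, numpy 2.4.6 and pandas 2.3.3, and figures were drawn with matplotlib 3.10.9.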

Additional observations from a re-analysis of the deposited data

How the results depend on the processing

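No paired analysis was possible because the deposited file gives peaks without library values; leaving out a replicate was likewise not possible. Of 18 alternative values, 9 stayed within 1.5 times a count or within the 95% binomial interval of a share or median. The 39 peaks of the Eip74EF window became 29 in the top 50% and 17 in the top 25% of 3L scores. Coverage of 39.1% became 33.9% with the top 50% of scores and 47.8% over the span of the members. The median width of 397 bp (349 to 832) became 664 bp in the top 50% of scores and 950 bp with peaks less than 500 bp apart joined. The 2 groups joined at 5 kb became 5 at 1 kb and 1 at 20 kb. The 1 other window of 3L with as many peaks or more became 11 with windows every 1 kb and 0 on a non-overlapping grid, by the construction of those grids. A tolerance of 0.015 put 29 members on the score series in place of 28. Joining at 500 bp, the background fitted on 3L outside the window (28 members) and leaving out the region of 71 peaks were added after seeing the data. Assignment of peaks to gene features was planned and not run. With no counts per library, the depth behind each peak is unknown.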
